A study of Mus musculus with 2 samples.

Results

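The genes described here are the angiopoietin and Tie receptor system of the vessel wall in sinusoidal endothelial cells of the liver (LSEC), which form its porous capillary lining. The 5 genes are the receptors Tek (also called Tie2) and Tie1, the ligands Angpt1 and Angpt2, and the phosphatase Ptprb (also called VE-PTP). The rule names the genes and uses no measured value, but the set was proposed with earlier results of these data known. They are represented by 6 probes of 39429 on the array, and by 5 of its 31880 genes and unnamed transcripts. The cells came from a wild-type and an ob/ob male, 1 mouse of each, at an age of 8 weeks. Mice with the ob/ob genotype lack functional leptin, the appetite hormone, through a mutation of its gene, and grow obese. In both groups the liver was digested with collagenase and the cells were held in serum-containing medium overnight before RNA was taken, so both arrays measured cultured cells. The labels name no further purification step. Each RNA was hybridised to 1 single-colour array, so no group has a replicate, no test across animals was possible and no p-value is given.

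Tek is a receptor tyrosine kinase of endothelial cells. Angpt1, made mainly by pericytes and other mesenchymal cells and carried by platelets, activates it and thereby keeps vessels quiet and tight. Angpt2, made by the endothelial cells themselves and stored in their granules, is a weaker and context-dependent ligand that can block Angpt1. Tie1 is the second receptor of the family, binds Tek and tunes its activity, while Ptprb removes phosphate from Tek and from the junction protein VE-cadherin. When Tek signals through the kinase Akt, the transcription factor Foxo1 leaves the nucleus, and Angpt2 is among the genes that Foxo1 switches on.

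The Tek and Tie1 probes are shown because they measure the 2 members with a positive difference under the reported processing, and because the receptors are related, so that a reader can see how far the measured stretches differ. Both lie in the protein-coding part near the 3′ end of the transcript. The Tek probe is at chr4:94540624-94540683 on the plus strand and the Tie1 probe at chr4:118144132-118144191 on the minus strand (mouse build mm9). Capitals mark the bases that are the same in both probes when they are aligned without gaps, with the Tie1 probe beginning 3 bases further upstream.
Tek: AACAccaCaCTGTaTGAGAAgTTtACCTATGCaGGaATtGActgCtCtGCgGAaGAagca
Tie1: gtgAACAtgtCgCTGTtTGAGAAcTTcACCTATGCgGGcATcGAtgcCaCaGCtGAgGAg
Of 57 aligned bases 39 are identical (68.4%), and the longest identical run is 8 bases.

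The remaining probes, not shown as sequences, lie on other chromosomes. The Angpt1 probe is at chr15:42256335-42256394, minus strand, and the Angpt2 probe at chr8:18691458-18691517, minus strand. Ptprb has a proximal probe at chr10:115820912-115820971 and a distal probe at chr10:115824180-115824239, both on the plus strand, beginning at positions 6229 and 9497 of the transcript. No annotation of mm9 was used here, so exon and UTR are not given for these probes.

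In the LSEC of the ob/ob mouse the receptor Tek was 1.84-fold higher and Tie1 1.24-fold higher than in the wild-type cells, the ligand Angpt2 was within 1.06-fold, and the phosphatase Ptprb was 1.63-fold lower by its brighter probe. Angpt1 was in neither genotype well above background. Of the 4 members measured on both arrays, 0 reached a 2-fold difference, where 8.11% of the 18135 genes measured on both arrays did. Signals are given as the scanner's processed intensity and as multiples of that array's 75th percentile, an intensity of 989 for wild-type and of 1430 for ob/ob. Differences are on the log2 scale, ob/ob minus wild-type, and the error beside them is the SD of the scanner's error model, which holds no spread between mice. The median difference of all genes measured on both arrays was -0.12. Levels of different probes are not compared, since each probe binds with its own strength.

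**Figure D1:**
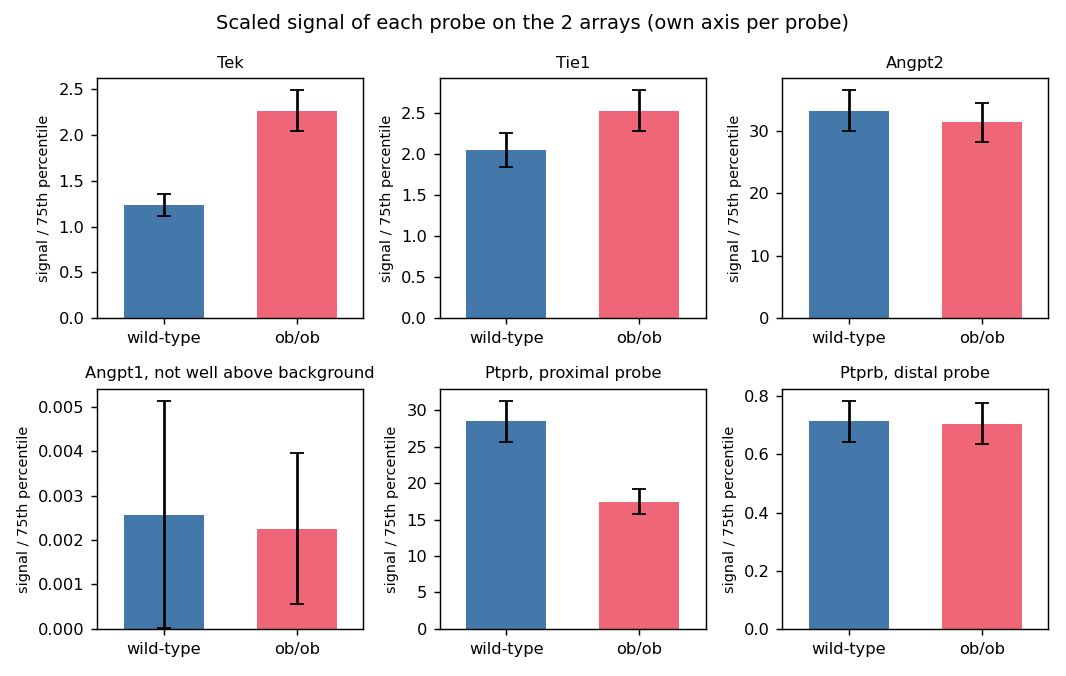
Signal of each of the 6 probes as a multiple of the 75th percentile of its array, on an axis of its own that starts at 0, with 1 wild-type and 1 ob/ob array; error bars are 1 SD of the scanner's error model. Tek stood at 1.23 and 2.27, Tie1 at 2.04 and 2.52, Angpt2 at 33.3 and 31.4, and the proximal Ptprb probe at 28.5 and 17.5, while the distal Ptprb probe was level and Angpt1 was near background.

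Tek had an intensity of 1220 (wild-type) and 3240 (ob/ob), or 1.23 and 2.27 times the 75th percentile. The ob/ob array is thus the higher one by 0.88 ± 0.20 on the log2 scale. Of all genes measured on both arrays, 6.68% had a higher difference. Among the 500 genes of nearest mean signal the median difference was -0.07, the central range from the 10th to the 90th percentile -0.46 to 0.48, and 6.20% had a higher difference than Tek. Tek had 1 probe, and neither of its spots was marked as uneven, outlying or saturated.

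Tie1, the co-receptor of Tek, had an intensity of 2020 (wild-type) and 3610 (ob/ob), or 2.04 and 2.52 times the 75th percentile. The difference of 0.30 ± 0.20 was again in favour of ob/ob and larger than 1 SD of the scanner's error. It was exceeded by 17.6% of all genes and by 12.2% of the 500 genes of like signal, whose median was -0.11. Tie1 differed by 0.03 when the median of each array replaced its 75th percentile as the scale.

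Angpt2, the endothelial ligand, had an intensity of 32900 (wild-type) and 44900 (ob/ob), or 33.3 and 31.4 times the 75th percentile. The difference of -0.08 ± 0.20 was smaller than the scanner's error. Bright genes as a class were lower on the ob/ob array: among the 500 genes of like signal the median was -0.35, and 11.4% had a higher difference than Angpt2. Relative to that median Angpt2 stood 0.27 higher, so its sign depended on how the level was taken into account. Across 10 other processings it was negative in 5 and positive in 5, from -0.36 with scaling on the array median to 0.27 with the running median by level.

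Angpt1, the activating ligand, had intensities of 2.55 (wild-type) and 3.23 (ob/ob). Both lie under the dimmest signal that was well above background, 12.3 and 11.7, so neither a fold nor a direction can be given. Of all 31880 genes and transcripts 35.4% had no probe above background on either array. Angpt4, a further ligand of Tek, was not well above background either, with intensities of 3.92 and 3.43. Of the ligands of Tek on the array, Angpt2 was therefore the only one measured above background in these cells.

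The proximal probe of Ptprb had an intensity of 28200 (wild-type) and 25000 (ob/ob), or 28.5 and 17.5 times the 75th percentile. Its difference was -0.71 ± 0.20, and 5.73% of all genes had a lower one. Among the 500 genes of like signal, whose median was -0.30, 8.40% had a lower difference. The distal probe had intensities of 706 and 1010, or 0.714 and 0.706 times the 75th percentile, and a difference of -0.02 ± 0.20. The lower value of Ptprb in ob/ob cells thus rests on 1 of its 2 probes.

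The probes of Ptprb differed from each other by 0.69, against an SD of 0.29 for such a gap from the scanner's error model. They begin 3268 bases apart on the transcript. Over the 3110 genes with exactly 2 probes measured on both arrays the median gap was 0.22, and 8.46% had a gap at least as wide. The mean of the Ptprb probes was -0.36. The proximal probe kept a negative difference in all 9 alternatives run on it, from -0.98 to -0.35. The distal probe did so in all 7 run on it, from -0.29 to -0.02, but the running median by level was not among them. Relative to the 500 genes of like signal, whose median was -0.05, the distal probe stood 0.03 higher, so its sign is not settled.

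**Figure D2:**
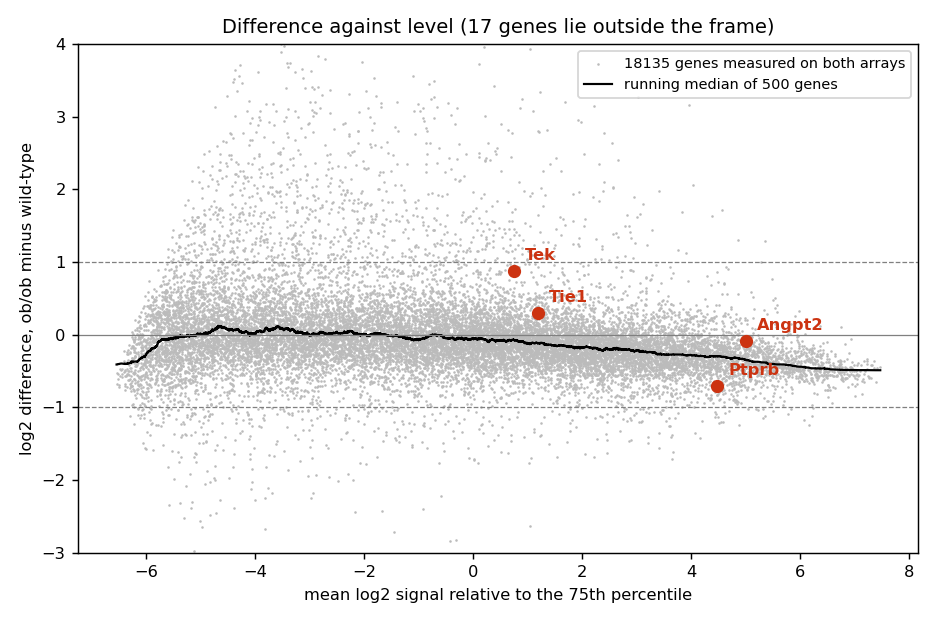
Log2 difference, ob/ob minus wild-type, against the mean log2 signal for the 18135 genes measured on both arrays (grey), with the running median over 500 genes (black line) and the 4 measured members (red, Ptprb by its brighter probe); dashed lines mark 2-fold, and 17 genes lie outside the frame. Tek and Tie1 lie above the running median, Angpt2 above it but close to 0, and Ptprb below it.

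With Ptprb taken by its brighter probe or the mean of both, the members kept the order Tek, Tie1, Angpt2 and then Ptprb. This held under the reported processing and in the 6 alternatives that changed the distances between them. By its distal probe, at -0.02, Ptprb stood above Angpt2 at -0.08 under the reported processing. In 3 others, including array-wide constants, the distances stayed within 0.01 of the reported ones. The distance from Tek to the proximal Ptprb probe, between 2 differences on the same arrays, ranged from 1.17 to 1.58, and was 1.24 to the mean of both Ptprb probes. This distance does not depend on any constant that scales a whole array. Tek was positive in all 10 alternatives, from 0.60 with scaling on the array median to 1.02 relative to the pan-endothelial markers, the only one of them in which a member passed 2-fold.

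**Figure D3:**
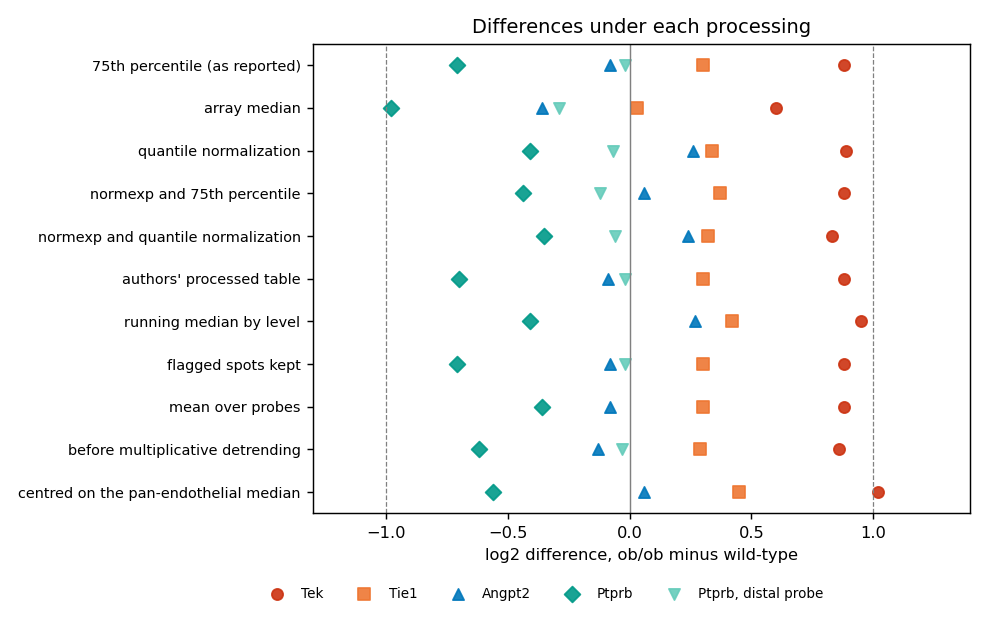
Log2 difference, ob/ob minus wild-type, of Tek, Tie1, Angpt2 and Ptprb and of the distal Ptprb probe under the reported processing and each alternative; dashed lines mark 2-fold. Tek runs from 0.60 to 1.02 and Ptprb from -0.98 to -0.35, while Angpt2 lies on both sides of 0.

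The cell type of the labels was checked against its markers. Of 18 sinusoidal endothelial markers 17 were measured on both arrays and all 17 were within 2-fold, with a median of -0.20; the other, Cd209b, was in neither genotype well above background. All 27 pan-endothelial markers were measured, and 25 of them were within 2-fold. The 2 higher ones (7.41%, against 5.82% of all measured genes) were Vwf at 1.44 and Sox18 at 1.35. The median of the 27 was -0.14. Against this median Tek stood 1.02 higher, Tie1 0.45 higher and Angpt2 0.06 higher, and Ptprb was lower at -0.56. The 2 marker lists hold 44 measured genes, of which 2 had a higher difference than Tek, 7 a higher one than Tie1, 18 a higher one than Angpt2 and 2 a lower one than Ptprb. In RNA from a mass of cells, fewer cells of a type and less RNA per cell cannot be told apart.

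With 2 arrays the likeness between genes is only the distance between their differences. By this measure the endothelial markers nearest to Tek were the receptor Gpr182 at 0.75, the sialomucin Emcn at 0.62 and the lipase anchor Gpihbp1 at 0.49. Nearest to Tie1 were the transcription factor Erg at 0.27 (0.63 by its dimmer probe), the lectin Clec4g at 0.25 and the adrenomedullin receptor Calcrl at 0.24. Angpt2 stood beside the VEGF receptor Kdr at -0.09 (0.20 by its dimmer probe), Maf at -0.04 and Lmo2 at -0.14. Ptprb stood beside Oit3 at -0.68, Mmrn2 at -0.76 and the junction protein Esam at -0.64.

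Markers of other cell types were higher on the ob/ob array, and their part in the values of the members was not tested. Over all genes measured on both arrays, 5.82% were at least 2-fold higher. Of pericyte and smooth muscle markers, cells that make Angpt1, 7 of 8 were at least 2-fold higher (median 1.95), with Kcnj8 at 2.77, Rgs5 at 2.50 and Pdgfrb at 1.60, the latter pair at 1.46 and 0.72 with the normexp background correction and the 75th percentile. The summed signal of that list was 29.4 times the 75th percentile on the wild-type array and 35.4 times on the other. Mcam, an adhesion molecule that endothelial cells also express, made up 27.2 and 26.2 of these sums, and without it they were 2.17 and 9.20. The brighter Mcam probe stood at -0.06 and its dimmer one at 2.39. Of the same list, the defining muscle genes Myh11 and Cnn1 were not well above background on either array. Of stellate cell markers 14 of 16 were higher (median 1.56, summed signal 18.8 and 65.6). Pdgfrb and Des, both higher, are counted in the pericyte list and in the stellate list. After normexp 4 pericyte and 5 stellate markers were higher under the 75th percentile, and 6 and 9 under quantile normalization. Of platelet markers, another source of Angpt1, 1 of 3 measured genes was higher, Pf4 at 2.95, and Ppbp reached only the ob/ob array, brighter there by at least 8.06-fold, while Gp9, Gp1ba and Gp6 were not well above background on either (summed signal 1.46 and 10.8). The median of the 3 was 0.55, or -1.35 with normexp and the 75th percentile, where 2 were lower. Macrophage markers had 15 of 17 higher (median 1.82, summed signal 65.1 and 185), with Cd163 not above background. Hepatocyte markers had 10 of 12 higher (median 2.42, summed signal 6.76 and 36.5), with Cps1 not above background. With normexp and the 75th percentile 7 hepatocyte markers were higher and 2 lower, with a median of 1.30.

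The wider pathway was described by 5 lists with 82 genes, of which 69 were measured on both arrays, 9 were higher by 2-fold or more and 0 lower. The shares over every gene measured on both were 5.82% higher and 2.29% lower, and the median of the 69 came to 0.08 against -0.12 for all. The split over every measured gene, 1055 higher and 415 lower, became 766 and 976 when arrays were scaled on their medians and 369 and 3818 with normexp background correction and the 75th percentile. For the 69 genes the same settings gave 8 and 0, and 8 and 1.

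The next list holds possible binding partners, integrins, matrix proteins and proteases around the Tie receptors. Of its 13 measured genes 2 were higher (15.4%, against 5.82% of all measured genes) and 11 within 2-fold (median 0.16). With scaling on the array median 1 was higher and the median was -0.12. The integrin subunit Itgb5 had intensities of 752 and 3190 and a difference of 1.55 ± 0.20. Ecm1, a secreted matrix protein that stellate cells also express, stood at 5920 and 20100, a difference of 1.23. Itgb3, the partner of the alpha-v integrin chain, stood at 0.94 by one probe and 1.22 by another. Lect2, a hepatocyte protein reported to bind Tie1, was measured on the ob/ob array only, at least 3.49-fold brighter there, as were 6.84% of all genes. Looked at outside the naming rule, the large matrix protein Svep1, a ligand of Tie1, was at -0.07 (-1.48 with normexp and the 75th percentile). The substrates of Ptprb other than Tek, VE-cadherin (Cdh5) and Kdr, were at -0.44 and -0.09. The dimmer probe of Kdr gave 0.20. Across 8 other processings Cdh5 ranged from -0.72 to -0.04 and Kdr from -0.37 to 0.14. Cdh5 was bright (52200 and 55500), and bright genes as a class were lower on the ob/ob array. The part of signal level in the Cdh5 difference was not tested.

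Signal carriers downstream of Tek were mostly within 2-fold, 26 of 27, with 1 higher (3.70%, against 5.82% of all measured genes). Their median was -0.20, and 18 of the 27 were negative. The higher one was Dok2, an adaptor that docks on Tek and is also abundant in blood cells, with intensities of 332 and 2970 and a difference of 2.63 ± 0.20. The catalytic subunit Pik3cb stood at 0.92 (0.31 with normexp and the 75th percentile) and the phospholipase Plcg2, an enzyme of immune cells, at 0.88. On the same arrays the macrophage list had a median of 1.82, and the part of such cells in these values was not tested. The kinase Pak1 was measured on the ob/ob array only, at least 2.45-fold brighter, and Grb14 at least 1.03-fold.

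Foxo1 and genes it acts on in endothelium had 3 of 12 measured members higher, 0 lower and 9 within 2-fold. The shares over all measured genes were 5.82% higher and 2.29% lower. The median of the list was 0.45 (0.17 with scaling on the array median). Only 1 listed gene was negative, Ccn2 at -0.63. The platelet-derived growth factor chain Pdgfb had intensities of 1810 and 10000 and a difference of 1.93 ± 0.20, and its second probe gave 2.43. The matrix protein Ccn1 was 1.41 higher and the morphogen Bmp4 1.34, or 0.88 with normexp and the 75th percentile. Foxo1 itself, looked at outside the naming rule, was at 0.43 and 0.53 by its probes. Spry2, a feedback inhibitor of receptor kinases, and Foxo3 were well above background in ob/ob cells alone, brighter by at least 2.54-fold and 1.29-fold. Angpt2, itself a Foxo1 target, stood at -0.08.

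Transcription factors that act on the promoters of the Tie receptors or of Angpt2 had 1 of 14 measured members higher and 13 within 2-fold. That is 7.14% higher, against 5.82% of all measured genes. The median of the list was 0.04 (-0.24 with scaling on the array median). The higher one was Foxc2, with intensities of 43.8 and 239 and a difference of 1.91, but -0.13 with normexp and the 75th percentile. Quantile normalization and the running median by level each gave 2 higher. The hypoxia factor Hif1a stood at 0.95, and passed 2-fold in 4 of 8 other processings. Tal1 stood at -0.36. Gata3 was measured on the wild-type array only, at least 2.62-fold brighter there.

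The angiopoietin-like proteins share the overall build of the angiopoietins but are not activating ligands of Tek. Angptl4, a secreted inhibitor of lipoprotein lipase, had intensities of 2580 and 35900 and a difference of 3.27 ± 0.20, from 2.99 to 3.48 across 8 other processings. Angptl8 stood at 0.78, and at -0.89 with normexp and the 75th percentile, and Angptl2 was measured in ob/ob cells alone, brighter by at least 1.99-fold.

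**Figure D4:**
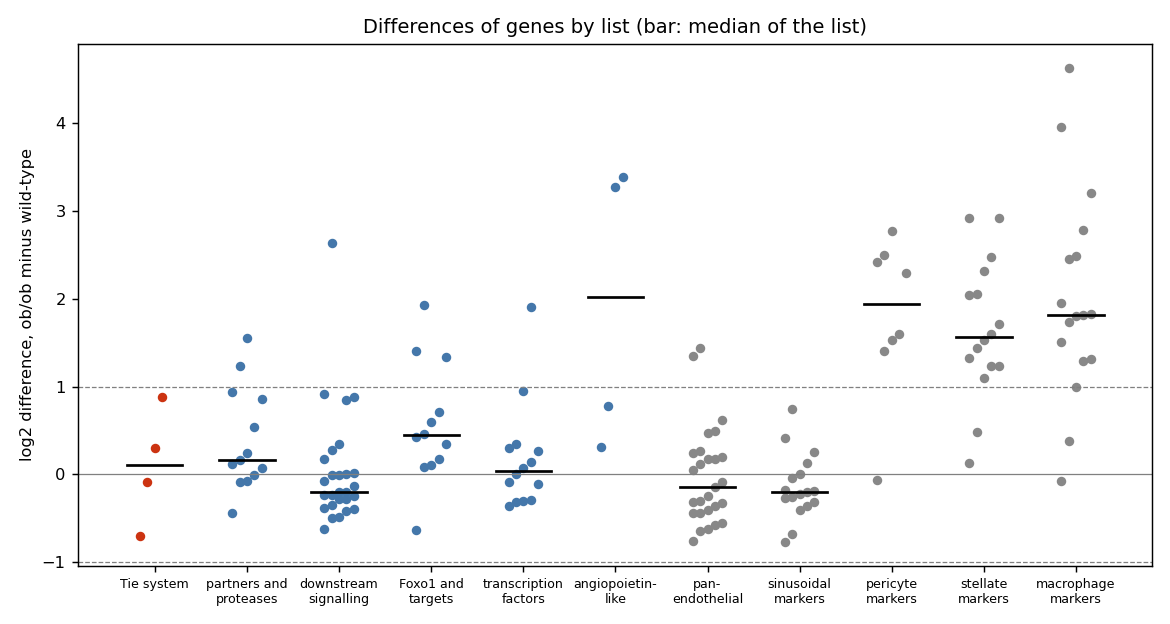
Log2 difference, ob/ob minus wild-type, of each gene measured on both arrays, with the 4 measured members in red, pathway lists in blue and cell marker lists in grey; black bars are list medians and dashed lines mark 2-fold. The members lie between -0.71 and 0.88, in the range of the pan-endothelial markers, while the medians of the pericyte, stellate and macrophage lists lie between 1.56 and 1.95.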

How the data were processed

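Cy3-labelled cRNA was made from total RNA with a low-input kit, per the labels' protocols, and 1 Agilent mouse array was read per genotype. The scanner software, Agilent Feature Extraction 11.0.1.1 per the submitters' processing notes, subtracted background per the file headers, removed spatial trends and wrote the deposited spot intensity on a linear scale, with flags, and with no scaling between arrays. The authors' deposited table holds, for 24868 features, the ratio of this intensity to a constant of the same array (988.6 and 1433). Its column medians are 0.614 and 0.647. It is linear and not centred per gene.

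From 43020 non-control spots, log2 intensity minus the log2 75th percentile of the array was taken, and spots flagged as uneven or outlying were dropped. Spots of a probe were averaged, and the brightest probe stands for a gene. A probe was measured where over 50% of its spots were well above background (58.6% of wild-type and 64.8% of ob/ob spots were). A bound sets the brighter value against the higher of the dimmest measured signal and the dim probe's own. A call means a 2-fold difference. Technical spread was a median SD of 0.05 over 257 probes with repeated spots (taken on differences between spots at the same position of both arrays, not within an array), 0.20 per gene by the scanner's error model, and 0.33 between probes of 1 gene (3693 genes). None of these measures animals, and precision is limited by having 1 array a group. Local background at the member spots was 58.0 to 66.5, near the array medians of 63.0 and 60.0.

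Members and lists were chosen with earlier results of these data known. Named were all members, in each pathway list genes past 2-fold (up to 3 with the next largest) and the 2 largest bounds, in marker lists the first 2 and the 2 largest, of which the text prints some (1 list gene is not reported here), and per member the 3 nearest endothelial markers. Probes were named by RefSeq accession (assembly GRCm38.p6, names only) for 26160 of 39429 probes. Alternatives covered scaling, background correction (normexp, limma 3.58.1, offset 50), flags, the probe for a gene and the filter. The steps were tested on simulated data with planted changes well past 2-fold and no shift by signal level. Calls near 2-fold were not tested in this way. Python 3.11.15 and pandas 2.3.3 were used.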

Additional observations from a re-analysis of the deposited data

How the results depend on the processing

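With arrays scaled on their medians, a shift of -0.28 for every gene, the values were Tek 0.60, Tie1 0.03, Angpt2 -0.36, Ptprb -0.98 and its distal probe -0.29. Quantile normalization gave Angpt2 0.26 and Ptprb -0.41, the same after normexp 0.24 and -0.35, and the running median by level 0.27 and -0.41. Ptprb was -0.44 with normexp and the 75th percentile and -0.36 as the mean of its probes. The other values of the members moved by less than 1 SD of the scanner's error. Among alternatives chosen after seeing the data, the signal before multiplicative detrending gave Tek 0.86 and Ptprb -0.62. Over every measured gene, the array median gave 976 lower, normexp before the 75th percentile 369 higher and 3818 lower, and normexp before quantile normalization 508 higher and 130 lower. With no filter on dim probes the counts were 2679 and 1634. The pathway lists together had 1 gene lower after normexp and the 75th percentile, and 14 higher and 1 lower when genes measured on at least 1 array were counted. Called genes that changed sign did so with normexp and the 75th percentile, Foxc2 at -0.13, Des at -0.92, Ngfr at -0.18, Hand2 at -0.84 and Hnf4a at -0.46, and the cause was not tested. For genes and lists taken singly, 1215 other comparisons stayed within 1 SD of the scanner's error (or 1.5 times a count), 428 moved further, and 8 counts grew and 8 shrank beyond that. No paired analysis was possible because each group holds 1 array. Signal over background limits Angpt1, which has no measured value on either array.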

Other observations

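Markers of lymphatic endothelium, whose cells use the same receptors, had 2 of 5 measured members at least 2-fold higher in ob/ob cells, 1 lower and 2 within 2-fold. The latter 2, Flt4 and Lyve1, are also counted among the sinusoidal markers. Foxc2, 1 of the higher ones, is also counted among the transcription factors. The shares over all measured genes were 5.82% higher and 2.29% lower. With the normexp background correction 0 were higher under the 75th percentile, and 1 higher and 0 lower under quantile normalization. Podoplanin (Pdpn) stood at 1.41, while the chemokine gene Ccl21a, which has near-identical copies, was at -2.57 (-0.89 with normexp and quantile normalization) with intensities of 74.1 and 18.1. Prox1, the defining transcription factor of lymphatic vessels, and Mmrn1 were not well above background on either array. Cholangiocyte markers had 3 of 4 measured members higher, with Spp1 at 3.73 and Krt8 at 2.90 (1.31 with normexp and the 75th percentile, where 1 was lower). The remaining one, Cftr, stood at -0.31. Krt19 and Krt7 exceeded background in ob/ob cells alone, brighter by at least 1.87-fold and 1.01-fold.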
